A study of Mus musculus with 4 samples.

Results

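The genes described here are 10 genes of the integrated stress response that centres on the transcription factor ATF4: Atf4, Atf5, Ddit3, Trib3, Chac1, Sesn2, Asns, Psat1, Phgdh and Slc7a5. They were taken by gene name from the probes of a mouse Agilent array that are not controls, and they are 10 of 31896 gene names on it. Total RNA came from 3D engineered muscle, a mouse muscle tissue built in culture, and each of 4 groups had 1 array. The groups were EPS 5 h (5 h after 30 min of acute EPS), EPS 0 min (directly after the same 30 min of EPS), no EPS 5 h and no EPS 0 min, the unstimulated tissues being the negative control of the design. EPS is read here as electrical pulse stimulation, which drives contraction of cultured muscle; the labels expand it as electrical plus stimulation. The labels give no genotype, strain, age or cell source, and they name no treatment other than EPS. They do not say how many engineered muscles went into 1 RNA sample. With 1 array a group there is no spread between tissues, so no difference below has a replicate check, no p-value is given, and size alone is described.

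The integrated stress response begins with kinases that phosphorylate the translation factor eIF2 when amino acids run short, unfolded proteins gather in the endoplasmic reticulum (ER), or other stresses act. Protein synthesis then slows in general while ATF4 protein is made in greater amount from its existing mRNA, and ATF4, with partners of the C/EBP family, switches on genes for amino acid uptake and synthesis, redox balance and feedback control. ATF4 is therefore regulated to a large extent in translation, and its mRNA level does not measure its protein. In mouse skeletal muscle, ATF4 is known for its part in the fibre wasting that follows fasting.

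Between EPS and no EPS, 5 h after the stimulus, Chac1, Sesn2 and Ddit3 were about 1.5-fold higher with EPS. Atf4 itself was 0.05 log2 higher by its brighter probe and 0.33 higher by its second probe. At 0 min Chac1, Sesn2 and Ddit3 stood at most 0.20 log2 above the control. The members that stood highest with EPS at 0 min were instead Trib3 and Atf5. Between 5 h and 0 min, a different set, the genes of amino acid supply Asns, Psat1, Phgdh and Slc7a5, was higher at 5 h whether or not the tissue had been stimulated. No member reached a 2-fold difference in any comparison by its brightest probe. The plot of each gene's level on the 4 arrays shows these patterns side by side.

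**Figure D1:**
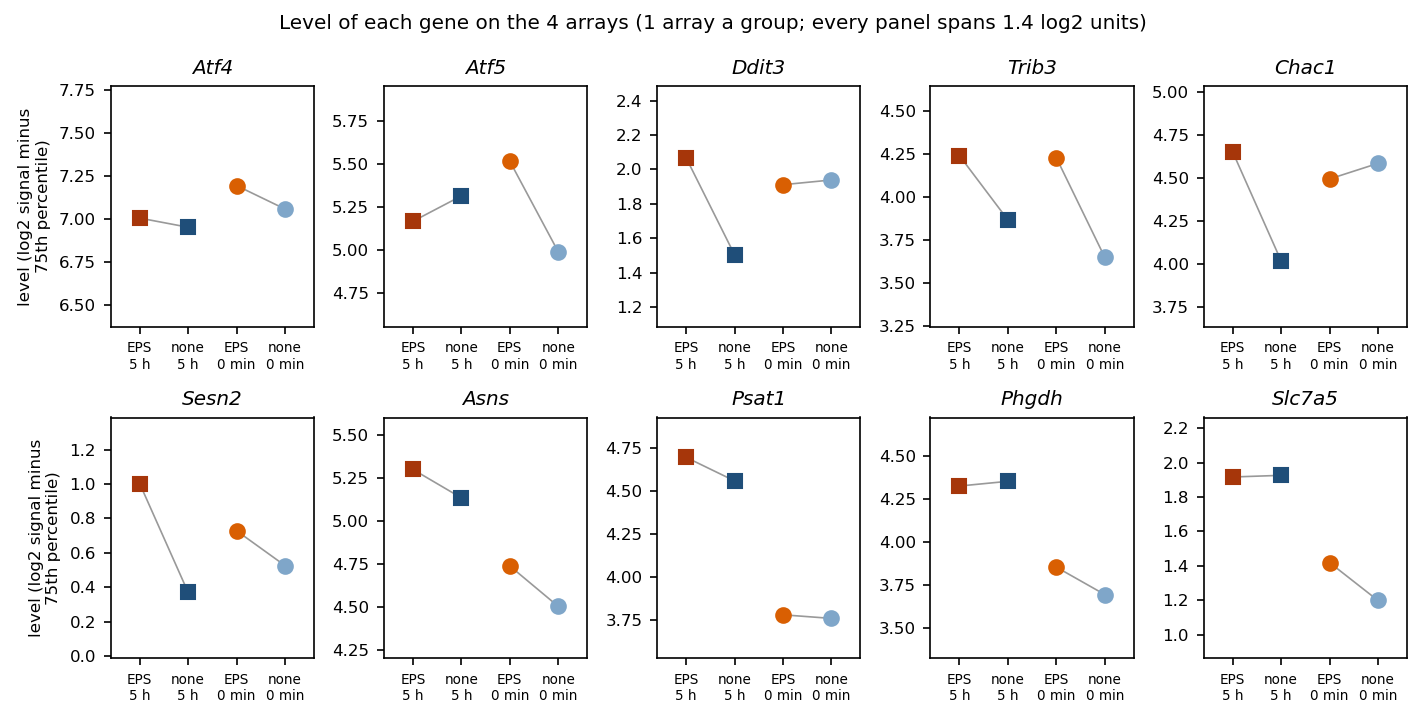
Level of each of the 10 genes (vertical axis, log2 processed signal relative to the 75th percentile of its array) on the arrays for EPS and no EPS at 5 h and at 0 min, 1 point an array, with each panel spanning the same height and a line joining EPS and no EPS of 1 time. Ddit3 and Chac1 were lowest on the no EPS array at 5 h, and Trib3 and Atf5 on the no EPS array at 0 min. Asns, Psat1, Phgdh and Slc7a5 were higher on both arrays at 5 h than on both at 0 min. The share of all genes with these orders was not counted.

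The level used throughout is the log2 processed signal of the scanner relative to the 75th percentile of all spots on the same array, so a level of 0 is the signal of the 75th percentile spot and a difference of 1 is 2-fold. All 10 genes were well above background on all 4 arrays, and none of their spots was saturated. A gene with several probes is represented by its brightest probe, and levels are compared for 1 probe between arrays and never between probes. Technical error came from 103 probes that were printed 10 times on each array and were at least as bright as the dimmest member. The standard deviation of a log2 difference over their spots had a 95th percentile of 0.10 to 0.11 for the comparisons of 2 arrays, and of 0.15 for the difference of EPS effects. The scanner software's own error for a member's log2 difference was larger, at 0.20. Both cover the measurement of 1 labelled RNA sample and not the variation between muscles. Genes are described by a 2-fold size rule, with 1.5-fold (0.585 on the log2 scale) given beside it. The order of a gene's 4 arrays is described as well. How many of all genes have the same order was not counted, so no order is read as particular to these genes.

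The tissue label was checked against marker genes. All 16 skeletal muscle markers were well above background on all 4 arrays, and their summed level on a linear scale was 959 with EPS and 1036 without EPS at 5 h, and 1291 with EPS and 1113 without EPS at 0 min. Leukocytes are the RNA source in the text of the labelling protocol, against engineered muscle in the titles. Of 10 leukocyte markers 5 were well above background on all 4 arrays, while Ptprc, Lyz2 and Tyrobp were among those on none. Summed levels of the leukocyte list were 10.6 with EPS and 9.46 without EPS at 5 h, and 8.71 with EPS and 9.38 without EPS at 0 min. Of the 5 measured leukocyte markers, 3 had an EPS difference below 0 at 5 h, and Cd14 was higher by 0.91 and Cd68 by 0.64. Cd14 was also 1.99 higher at 5 h than at 0 min after EPS and 1.20 higher without EPS. Of 10 fibroblast markers 9 were measured on all 4 arrays, with sums of 253 with EPS and 295 without EPS at 5 h, and 355 with EPS and 324 without EPS at 0 min. Muscle and fibroblast sums were thus lowest and the leukocyte sum highest in EPS at 5 h. Ddit3, Chac1 and Sesn2 were highest on the same array, and so were Trib3, Asns and Psat1. Among the 5 measured leukocyte markers Cd14 alone, at a level of 2.06, was highest on that array. Itgam, the brightest of them, was lowest on it, at 2.52. The part of cell makeup in the results was not tested. The other lists had low sums, of 2.0 to 3.52 for endothelial cells (3 of 8 markers measured), 0.051 to 0.18 for adipocytes (1 of 6) and 4.71 to 7.61 for neurons and Schwann cells (5 of 8). In bulk tissue, fewer cells of a type and less RNA per cell cannot be told apart.

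Atf4, the factor that gives the response its name, differed little between the arrays by its brighter probe. Its level was 7.0 with EPS and 6.95 without EPS at 5 h, and 7.19 with EPS and 7.06 without EPS at 0 min. The EPS differences of 0.05 at 5 h and 0.14 at 0 min were inside the software error of 0.20, and the difference at 0 min turned to −0.03 under quantile normalization. The 5 h minus 0 min differences were −0.19 after EPS and −0.11 without EPS, and these too changed sign under other scalings, reaching 0.10 after EPS and 0.03 without EPS. A second Atf4 probe had levels of 2.49 with EPS and 2.16 without EPS at 5 h, and of 2.35 with EPS and 2.25 without EPS at 0 min. It gave an EPS difference of 0.33 at 5 h, larger than that of the brighter probe, and of 0.10 at 0 min. The probes thus differed at 5 h by more than the spot error, and at 0 min they did not. Both lie on the plus strand of chromosome 15 in the mm9 positions of the array files, the brighter one at chr15:80087902-80087961 and the other upstream of it at chr15:80086639-80086698. They are printed to show which stretches of the transcript gave these unequal values, with capitals for a polyadenylation signal (AATAAA or ATTAAA) where there is one.
Atf4, brighter probe: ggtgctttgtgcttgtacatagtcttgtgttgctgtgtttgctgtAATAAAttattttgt
Atf4, second probe: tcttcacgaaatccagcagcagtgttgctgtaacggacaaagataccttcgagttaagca

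Over the 4 arrays, the named genes most like Atf4 were chosen by the distance between levels after each gene's own mean was taken off. Of 10458 genes, Ablim1 was nearest (distance 0.013 log2 units), then Slc37a3 (0.020), Aga (0.023), Nipsnap3b (0.025) and Zcchc17 (0.026). None of the other 9 members was among these 5, and 4 arrays are too few points to give the order weight.

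Atf5, a basic leucine zipper factor related to Atf4 and likewise controlled in translation, had levels of 5.17 with EPS and 5.31 without EPS at 5 h, and of 5.52 with EPS and 4.99 without EPS at 0 min. The 0 min pair stood farthest apart, with EPS the highest and no EPS the lowest of the 4 arrays. The EPS difference was 0.53 at 0 min (1.44-fold), which ranked 459 from the top among 18590 genes, and −0.15 at 5 h. By time, Atf5 was 0.35 lower at 5 h after EPS and 0.32 higher at 5 h without EPS. It was the single member whose EPS effect at 5 h was at least 1.5-fold below its EPS effect at 0 min, by −0.67 on the log2 scale (1.60-fold lower).

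Ddit3 encodes CHOP, a partner of C/EBP factors that ATF4 induces and that is known for promoting cell death in long stress. Its level was 2.07 with EPS and 1.5 without EPS at 5 h, and 1.91 with EPS and 1.94 without EPS at 0 min. The no EPS array at 5 h was the low one and the other 3 were alike. The EPS difference was 0.56 at 5 h (1.48-fold, just under the 1.5-fold line) and −0.03 at 0 min. The EPS effect at 5 h exceeded that at 0 min by 0.59 (1.51-fold). The Ddit3 probe spans chr10:126732518-126732821 in mm9, a stretch longer than the probe itself.

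Trib3, a pseudokinase that binds ATF4 and the kinase AKT and dampens the response, was higher with EPS at both times. Its level was 4.24 with EPS and 3.87 without EPS at 5 h, and 4.23 with EPS and 3.65 without EPS at 0 min. Both EPS arrays were nearly equal and both stood above both no EPS arrays, as they did for Sesn2 below. The EPS difference was 0.37 at 5 h, rank 881 from the top of 18544 genes, and 0.58 at 0 min (1.49-fold), rank 380 of 18590. Time made little difference, at 0.01 after EPS and 0.22 without EPS.

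Chac1, an enzyme that breaks down glutathione and a sensitive target of ATF4, had a level of 4.65 with EPS and 4.02 without EPS at 5 h, and of 4.49 with EPS and 4.59 without EPS at 0 min. As with Ddit3, the no EPS array at 5 h was low and the other 3 were close together. The EPS difference at 5 h was 0.63 (1.55-fold), rank 329 from the top of 18544 genes, against −0.09 at 0 min. The difference of EPS effects was 0.72 (1.65-fold), and without EPS Chac1 was 0.57 lower at 5 h than at 0 min (1.48-fold). The difference at 5 h and the difference of the times without EPS share the no EPS array at 5 h and are not separate observations. By the distance used for Atf4, Chac1 was the 4th nearest of 13579 genes to Ddit3, at 0.093 log2 units. For other pairs of members the rank ran from 20 (Phgdh and Slc7a5) to 12939 (Atf4 and Psat1). As for Atf4, 4 arrays are too few points to give a rank weight.

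Sesn2, a leucine sensor that restrains the growth kinase complex mTORC1, had levels of 1.0 with EPS and 0.37 without EPS at 5 h, and 0.73 with EPS and 0.53 without EPS at 0 min. Here the EPS array at 5 h was highest, and both EPS arrays stood above both no EPS arrays. The EPS difference was 0.63 at 5 h (1.55-fold), rank 330 of 18544 genes, and 0.20 at 0 min, equal to the software error. The difference of the EPS effects was 0.43, under the 1.5-fold line. In the plot of EPS differences, Chac1, Sesn2 and Ddit3 stand highest on the 5 h axis, and Trib3 and Atf5 farthest along the 0 min axis. These are not 2 separate groups. By the distance used for Atf4, Sesn2 was 0.26 log2 units from Ddit3, 0.33 from Trib3 and 0.34 from Chac1.

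**Figure D2:**
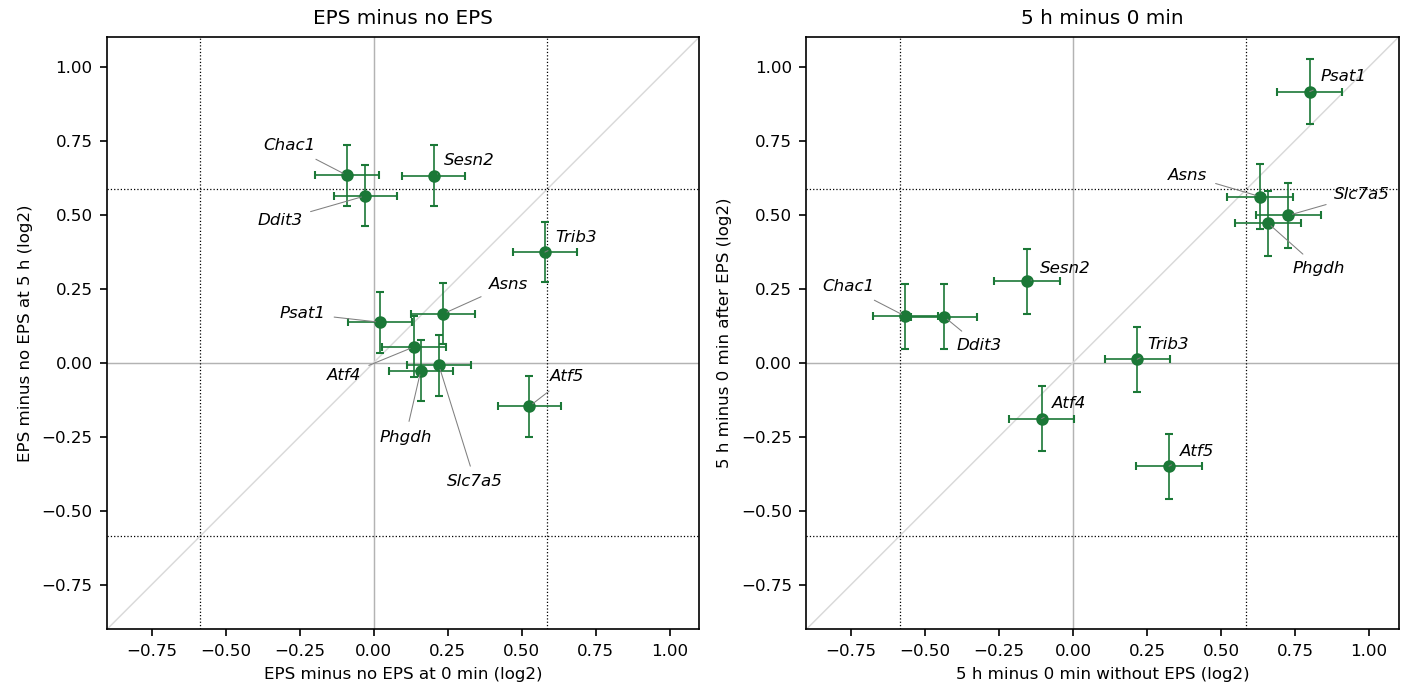
Left, EPS minus no EPS difference of each gene at 5 h (vertical axis) against that at 0 min (horizontal axis); right, 5 h minus 0 min difference after EPS (vertical) against that without EPS (horizontal), all in log2 units. Bars are the 95th percentile of the spot standard deviation, dotted lines mark 1.5-fold and the grey diagonal marks equal values; the axes of a panel share no array. Chac1 (0.63 and −0.09), Ddit3 and Sesn2 lie highest in the left panel, and Trib3 and Atf5 farthest to its right. Psat1 (0.92 and 0.80) lies at the upper right of the right panel.

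Asns makes asparagine from aspartate and glutamine and is a classic target of ATF4 in amino acid shortage. Its level was 5.30 at 5 h and 4.74 at 0 min after EPS, and 5.14 at 5 h and 4.51 at 0 min without EPS. Both arrays at 5 h were above both at 0 min. The 5 h minus 0 min difference was 0.56 after EPS and 0.63 without EPS (1.55-fold), while the EPS differences were 0.17 at 5 h and 0.23 at 0 min.

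Psat1, the aminotransferase of serine synthesis, showed the largest difference between the times among the 10 genes. Its level was 4.69 at 5 h and 3.78 at 0 min after EPS, and 4.56 at 5 h and 3.76 at 0 min without EPS. The arrays of the times did not overlap, and EPS and no EPS lay close together at each time. The 5 h minus 0 min difference was 0.92 after EPS (1.89-fold) and 0.80 without EPS (1.74-fold), and the EPS differences were 0.14 at 5 h and 0.02 at 0 min. A second Psat1 probe gave larger time differences, of 1.21 after EPS (2.31-fold) and 0.93 without EPS, and so passed, after EPS, the 2-fold line that the brighter probe missed. Its levels were 0.74 at 5 h and −0.47 at 0 min after EPS, and 0.45 at 5 h and −0.48 at 0 min without EPS. Both probes lie on the minus strand of chromosome 19 (mm9), the brighter at chr19:15979622-15979681 and the second at chr19:15991586-15991645, upstream of it along the gene. The accession field of the second probe also lists predicted transcripts. Both are printed because the choice of probe decides the 2-fold call, with capitals as for Atf4.
Psat1, brighter probe: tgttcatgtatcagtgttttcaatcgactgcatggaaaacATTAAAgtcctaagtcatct
Psat1, second probe: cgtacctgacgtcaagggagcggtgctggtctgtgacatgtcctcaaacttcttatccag

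Phgdh, the enzyme that commits a glycolysis intermediate to serine synthesis, had levels of 4.33 at 5 h and 3.85 at 0 min after EPS, and of 4.35 at 5 h and 3.69 at 0 min without EPS. Again both arrays at 5 h were the high ones. The time difference was 0.47 after EPS and 0.66 without EPS (1.58-fold), and EPS differences were −0.03 at 5 h and 0.16 at 0 min. Its second probe gave time differences of 0.46 after EPS and 0.54 without EPS, so the 1.5-fold line without EPS was passed by the brighter probe alone. The probes adjoin each other, at chr3:98117215-98117274 and chr3:98117303-98117361 on the minus strand of mm9.

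Slc7a5 is LAT1, which carries leucine and other large neutral amino acids into the cell. Its level was 1.92 at 5 h and 1.42 at 0 min after EPS, and 1.93 at 5 h and 1.20 at 0 min without EPS. The 5 h arrays were the same to within 0.01 and both stood above the 0 min arrays. The time difference was 0.50 after EPS and 0.73 without EPS (1.66-fold), with EPS differences of −0.01 at 5 h and 0.22 at 0 min. A second probe gave time differences of 0.24 after EPS and 0.36 without EPS, less than those of the brighter probe. Over the 4 arrays the closest pair of the 10 genes was Phgdh and Slc7a5, 0.066 log2 units apart after centring, and the farthest was Chac1 and Psat1 at 1.12. The plot of all 4 comparisons gives every gene with its second probe.

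**Figure D3:**
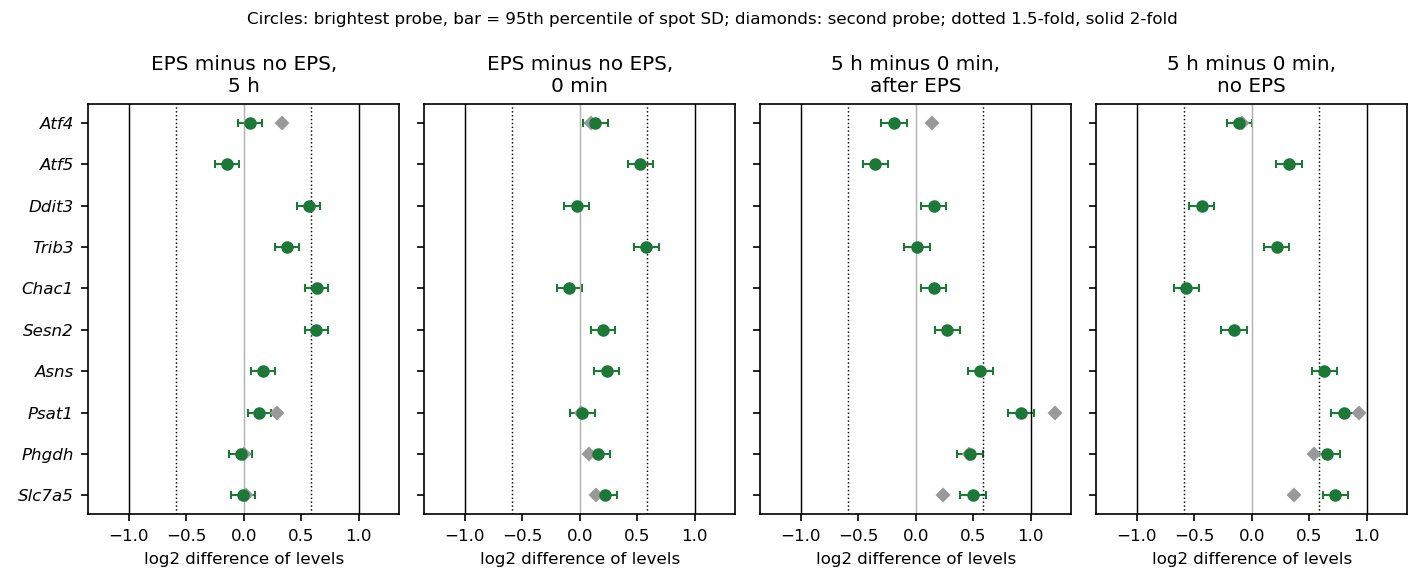
Log2 difference of levels (horizontal axis) of the 10 genes in the 4 comparisons, 1 panel each. Circles are brightest probes with the 95th percentile of the spot standard deviation as a bar, diamonds are second probes, and dotted and solid lines mark 1.5-fold and 2-fold; the second Psat1 probe after EPS (1.21) is the one point past 2-fold.

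Counted over the list, EPS at 5 h gave a positive difference in 7 of 10 members, and the median was 0.15, against −0.03 over all genes, of which 43.4% were positive. No member reached 2-fold in either direction, where 1.21% of 18544 genes did. Chac1 and Sesn2 were the 2 members at least 1.5-fold higher, against 2.06% of genes, and no member was 1.5-fold lower, against 2.96%. With arrays centred on their medians Ddit3 passed the line as well, at 0.65.

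At 0 min, 8 of 10 members had a positive EPS difference, with Ddit3 and Chac1 the exceptions. The median was 0.18, against 0.02 over all genes, of which 54.5% were positive. No member passed either line, against 1.34% of 18590 genes at 2-fold, 2.01% at 1.5-fold higher and 3.34% at 1.5-fold lower. Trib3, at 1.49-fold, and Atf5, at 1.44-fold, lay just inside.

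After EPS, 8 of 10 members were higher at 5 h than at 0 min, all but Atf4 and Atf5, with a median of 0.22 against −0.08 over all genes, of which 42.5% were higher. No member reached 2-fold, where 6.05% of 18471 genes did. Psat1 was the 1 member at least 1.5-fold higher, against 7.9% of genes, and none was 1.5-fold lower, against 12.5%. Without EPS, 6 of 10 were higher at 5 h, with a median of 0.27 against −0.02 over all genes, of which 47.5% were higher. None reached 2-fold, where 4.7% of 18486 genes did. Asns, Psat1, Phgdh and Slc7a5 were the 4 members at least 1.5-fold higher, against 6.6% of genes, and none was 1.5-fold lower, against 9.38%. Without EPS, quantile normalization put Asns at 0.57 and Phgdh at 0.58, just under that line, and Chac1 past 1.5-fold lower at −0.66, and the mean of its probes put Slc7a5 at 0.55. Psat1 after EPS was past 2-fold with the mean of its probes, at 1.06, and with arrays centred on their medians, at 1.1.

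The EPS effect at 5 h minus that at 0 min was positive in 4 of 10 members, close to the 41.9% of 18107 genes that were positive, with a median of −0.08 against −0.05 over those genes; the sign of this median depended on the scaling and on the choice of probe. No member reached 2-fold, where 1.99% of genes did. Ddit3 and Chac1 were at least 1.5-fold higher, against 3.37% of genes, and Atf5 was at least 1.5-fold lower, against 4.0%. Atf5 was under the 1.5-fold line with normexp background correction, at −0.57, and with quantile normalization, at −0.46. The comparisons of EPS and of time share arrays, so a member's values in them are tied to each other and their likeness is no result.

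The promoters of the 10 genes were read for the C/EBP-ATF composite element, the joint binding sequence of C/EBP and ATF factors. RefSeq promoters of GRCm38.p6 run from 250 bases before to 50 bases from the annotated start, and 9 of the 10 genes matched, with 11 windows, since Atf5 and Psat1 have 2 starts each. Both strands were searched for TGATGCAA, for its relaxed form TGATGNAA, which contains every match of TGATGCAA, for TGCAAT, the C/EBP side of such elements, which can overlap them, and for the ER stress element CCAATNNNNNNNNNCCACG. TGATGCAA was in 1 of the 11 windows, that of Chac1, and in 0.895% of 32851 windows of all genes. TGATGNAA was in 3, those of Chac1, Trib3 and Asns, and in 3.97% of all windows. TGCAAT was in 2, of Trib3 and of the Psat1 start at chr19:15925010-15925309, and in 8.40% of all. The ER stress element was in none of the 11 and in 0.119% of all windows. These matches are letters in a window and show no binding, and no match says only that the letters are not in that window. The windows with a match are printed 5′ to 3′ on the gene's strand with the matches in capitals: Chac1 (chr2:119350992-119351291, plus strand), Trib3 (chr2:152344011-152344310, minus strand), Asns (chr6:7693160-7693459, minus strand) and Psat1 (minus strand). They carry genes of both patterns above, Chac1 and Trib3 from the EPS differences and Asns and Psat1 from the time differences.
Chac1: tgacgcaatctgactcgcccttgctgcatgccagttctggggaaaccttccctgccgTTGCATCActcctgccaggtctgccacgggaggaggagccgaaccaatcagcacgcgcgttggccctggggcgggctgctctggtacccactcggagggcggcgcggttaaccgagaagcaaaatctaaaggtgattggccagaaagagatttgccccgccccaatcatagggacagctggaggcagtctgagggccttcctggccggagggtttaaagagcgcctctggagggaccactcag
Trib3: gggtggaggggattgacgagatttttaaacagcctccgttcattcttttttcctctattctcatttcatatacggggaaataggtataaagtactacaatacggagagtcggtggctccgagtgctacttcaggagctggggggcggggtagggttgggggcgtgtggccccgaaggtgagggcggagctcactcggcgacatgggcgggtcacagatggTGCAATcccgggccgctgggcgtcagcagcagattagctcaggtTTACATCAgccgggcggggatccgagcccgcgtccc
Asns: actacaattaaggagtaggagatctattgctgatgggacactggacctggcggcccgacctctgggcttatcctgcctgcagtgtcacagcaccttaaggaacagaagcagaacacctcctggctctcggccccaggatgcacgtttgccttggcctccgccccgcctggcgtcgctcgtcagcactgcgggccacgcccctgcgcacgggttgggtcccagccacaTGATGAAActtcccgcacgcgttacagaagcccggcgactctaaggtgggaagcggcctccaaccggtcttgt
Psat1: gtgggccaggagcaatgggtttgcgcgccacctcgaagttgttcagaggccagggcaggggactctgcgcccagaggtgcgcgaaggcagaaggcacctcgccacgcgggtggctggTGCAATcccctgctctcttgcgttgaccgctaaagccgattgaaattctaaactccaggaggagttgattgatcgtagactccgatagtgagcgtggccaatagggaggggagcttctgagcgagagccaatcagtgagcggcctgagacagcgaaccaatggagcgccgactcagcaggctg

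Matches to TGATGNAA lay at positions −193 to −186 from the start of Chac1 on the opposite strand, at 15 to 22 within Trib3 on the opposite strand, and at −23 to −16 from the start of Asns on the gene's strand. TGCAAT lay at −30 to −25 from the start of Trib3 and at −133 to −128 from that of Psat1. The map of matches shows that the windows of Ddit3 and Sesn2, which were higher with EPS at 5 h as Chac1 was, held none of the searched letters.

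**Figure D4:**
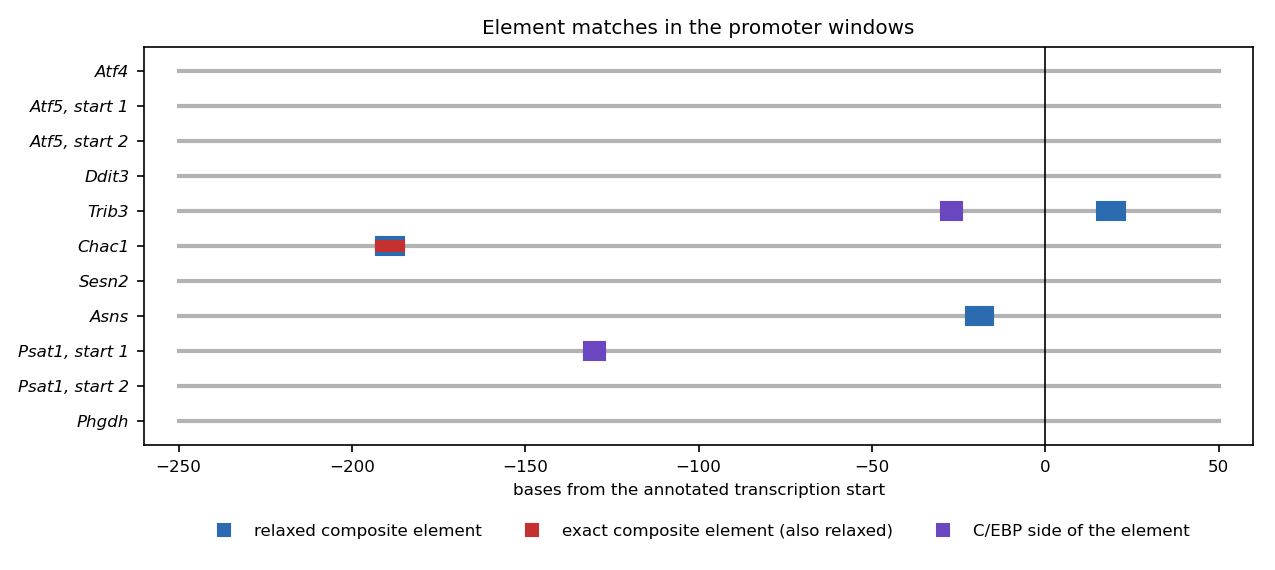
Promoter windows of 9 of the 10 genes, drawn as grey lines by distance in bases from the annotated transcription start (horizontal axis), with coloured boxes at the element matches. Chac1, Trib3 and Asns hold a relaxed composite element, Chac1 the exact one, and Trib3 and the Psat1 window of start 1 the C/EBP side of the element.

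Upstream of ATF4, the 15 genes for the eIF2 kinases, eIF2, its exchange factor eIF2B and its phosphatase subunits were all measured, and none reached 1.5-fold in either EPS comparison. Their median EPS difference was 0.15 at 5 h and 0.06 at 0 min. Ppp1r15a, also called Gadd34, the stress-induced subunit that brings the phosphatase back to eIF2, was 0.36 higher with EPS at 5 h. Over all genes, 2.06% were at least 1.5-fold higher and 2.96% lower with EPS at 5 h. At 0 min the shares were 2.01% and 3.34%, and both pairs hold for the lists below as well. Between the times 1 of the 15 passed 1.5-fold, Eif2b3, an eIF2B subunit, at 0.79 after EPS, where 7.9% of all genes were higher.

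Among 16 other factors and signalling genes of the response, the median EPS difference was 0.04 at 5 h and 0.21 at 0 min. At 5 h, 1 was at least 1.5-fold higher, Atf3, a stress-induced repressor, with a difference of 0.84. At 0 min there were 2, Gdf15, a secreted stress hormone, at 0.63 and Atf3 at 0.61, and Gdf15 was 0.50 higher with EPS at 5 h. At 0 min neither was past 1.5-fold under quantile normalization, and 1 was with normexp background correction. Their levels, for Atf3 1.42 with EPS and 0.58 without EPS at 5 h and 1.62 with EPS and 1.01 without EPS at 0 min, were like those of Trib3 in being higher on both EPS arrays. By time, 3 genes were at least 1.5-fold higher and 4 lower after EPS, and 4 were higher and 0 lower without EPS. The shares over all genes were 7.9% higher and 12.5% lower after EPS, and 6.6% higher and 9.38% lower without EPS. Stc2, a secreted glycoprotein, led with 1.33 after EPS and 1.22 without EPS.

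Of 12 further amino acid transporters none was 1.5-fold different with EPS at 5 h, and 2 were higher at 0 min, Slc7a11 by 0.81 and Slc7a1, an arginine and lysine carrier, by 0.60, neither of which passed the line with normexp. Between the times, 5 were at least 1.5-fold higher and 2 lower after EPS, against 7.9% and 12.5% of all genes. Without EPS 6 were higher and 1 lower, against 6.6% and 9.38%. The median was 0.50 after EPS and 0.53 without EPS. Slc7a11, the cystine importer xCT, went far beyond any member, by 3.84 after EPS (14.4-fold) and 4.32 without EPS (19.9-fold). Its level was −0.72 at 5 h and −4.56 at 0 min after EPS, and −1.05 at 5 h and −5.37 at 0 min without EPS, so both 0 min arrays were low. With normexp the size shrank to 2.78 after EPS and 2.93 without EPS on the log2 scale. The neutral amino acid carrier Slc1a5 was higher at 5 h by 1.24 after EPS and 1.15 without EPS. Slc43a1, another leucine carrier, was lower at 5 h, where it fell by 1.48 after EPS and by 1.22 without EPS.

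Of 15 other genes of serine, glycine, folate-linked and proline synthesis, 6 were at least 1.5-fold higher and 1 lower at 5 h after EPS. Without EPS 5 were higher and 0 lower. The shares over all genes were 7.9% higher and 12.5% lower after EPS, and 6.6% and 9.38% without EPS. Cth, which makes cysteine from cystathionine, was higher at 5 h by 1.39 after EPS and 1.18 without EPS. Bcat1, a branched-chain amino acid transaminase, was higher by 1.63 after EPS and 1.07 without EPS. Psph, which completes serine synthesis after Phgdh and Psat1, was higher by 1.01 after EPS and 0.87 without EPS. Without EPS the 3 enzymes of that pathway were thus all at least 1.5-fold higher by their brightest probes. Phgdh did not reach that line by its second probe (0.54) or under quantile normalization (0.58). With EPS at 5 h, 1 of the 15 passed 1.5-fold, Cth at 0.68. Cytosolic aminoacyl-tRNA synthetases, which load amino acids onto tRNA, were 20 in number. Of them 18 were higher at 5 h after EPS and 17 without EPS, where 42.5% and 47.5% of all genes were. At 1.5-fold 2 were higher each time, near the shares of all genes, 7.9% after EPS and 6.6% without EPS. With arrays centred on their medians, which moved the median of all genes upward in these comparisons, 10 passed after EPS and 5 without EPS. Nars led without EPS with 0.81 and Hars after EPS with 0.72, and none passed 1.5-fold in either EPS comparison.

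The other branches of the unfolded protein response, run by ATF6 and IRE1, raise ER chaperones. All 18 genes of that list had a positive EPS difference at 5 h, as 43.4% of all genes did, with a median of 0.53. At least 1.5-fold higher were 7, against 2.06% of all genes. Of these 5 were at least 2-fold higher, against 1.21% of all genes in either direction. The 18 remained positive under each scaling and background correction run, while normexp left 3 at 2-fold. Creld2, an ER protein induced by ER stress, was 1.62 higher (3.08-fold), Hyou1, an ER chaperone, 1.19 and Manf, a secreted factor induced by ER stress, 1.17. Against them, Chac1, with 0.63, was the highest of the 10 genes at 5 h, and the members' median was 0.15. At 0 min none of the 18 reached 1.5-fold, and their median was 0.10 against 0.18 for the 10 genes. The difference of EPS effects was positive in 18 of 18 genes on this list and in 4 of the 10 members, against 41.9% of all genes. The members' count did not hold under every setting. Over the settings Atf4 ran from −0.08 to 0.26 and Asns from −0.07 to 0.09. No test of the difference between the lists was made. The lists were chosen with earlier results of these data known, so the contrast is description only.

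**Figure D5:**
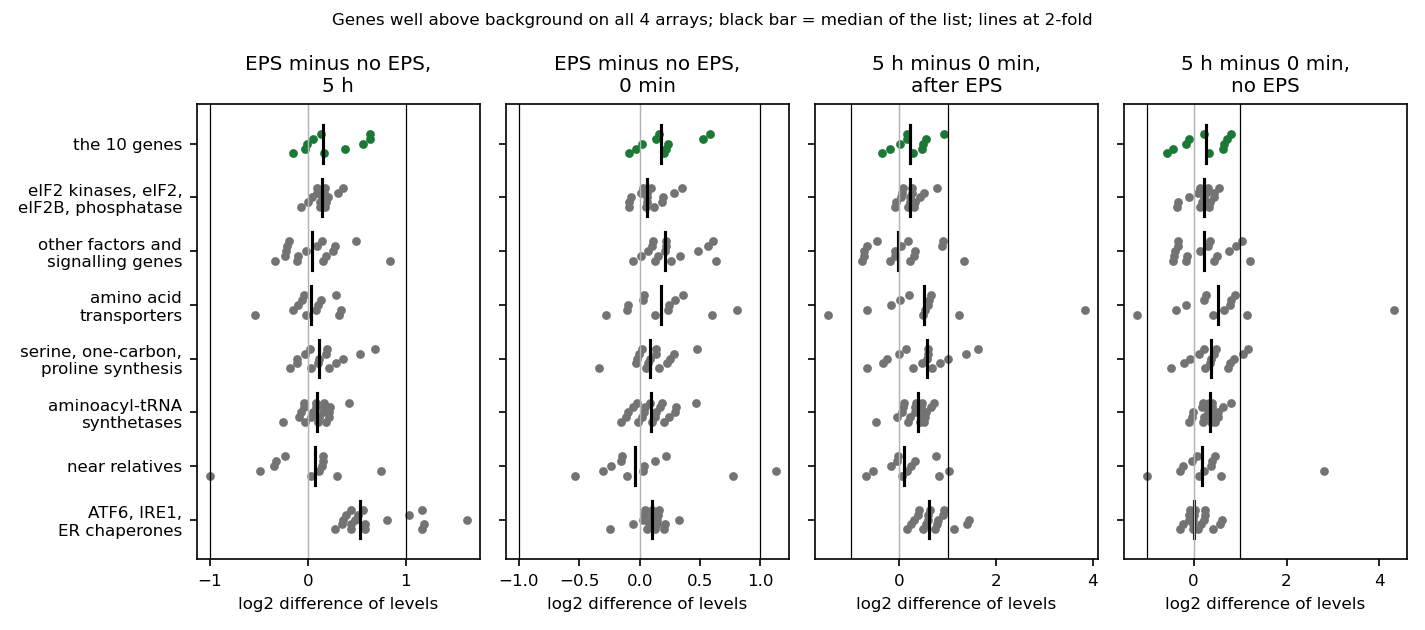
Log2 difference of levels (horizontal axis, scaled for each panel) of every gene well above background on all 4 arrays, by list, in the 4 comparisons. Dots are genes, the 10 members in green, black bars are list medians and vertical lines mark 2-fold; in the 5 h panel the ER chaperone list has a median of 0.53 and the 10 genes 0.15.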

How the data were processed

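Total RNA of 4 engineered muscle samples was measured on single-colour Agilent arrays of 1 slide, so no slide effect separates the groups. RNA extraction, per the labels' protocols, used guanidinium, phenol and chloroform. Copies from oligo-dT primers took up Cy3 during in vitro transcription. Oligo-dT priming favours probes near the end of a transcript. The authors deposited spot intensities that Agilent Feature Extraction 10.7.3.1 had corrected for background, per the file headers, with other columns of flags for detection above background, saturation and outliers. The authors' deposited value table of the series held the same intensities, with 44397 of 44397 values equal on each array and column medians of 69.4 (EPS, 5 h), 57.6 (EPS, 0 min), 64.0 (no EPS, 5 h) and 75.2 (no EPS, 0 min). It is therefore linear and not centred. The 75th percentile of the signal lay between 1093 and 1492 over the 4 arrays, each with 43020 spots that are not controls. On each array 112 to 141 outlier spots were left out and 0 were saturated. The number of arrays, 1 a group, limits the precision.

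From the intensities, log2 levels were computed relative to each array's 75th percentile, spots of 1 probe were averaged, and the brightest of a gene's probes was used. Of 39429 probes 26055 were matched by accession to RefSeq names (GRCm38.p6). Positions of probes are those of the array files (mm9), and their place in exons or untranslated regions was not analysed here. The 10 genes had 14 probes, 6 genes with 1 and 4 with 2. The 2-fold size rule took genes that both arrays (all 4 for the difference of EPS effects) measured well above background, and no test was run. Error came from probes printed 10 times. The calculation was tested on simulated data.

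All 10 members are named. Of each other list, genes were named from the 4 with the largest absolute difference in a comparison, and the 5 genes most like Atf4 come from those with a mean level above the lower quartile. The members and lists were chosen with earlier results of these data known, and the promoter elements were chosen after the values were seen. Alternatives were a 1.5-fold size rule, normexp background correction (offset 50), arrays centred on their medians, quantile normalization, stricter and looser filters on dim genes, and the mean of a gene's probes. Work used Python 3.11.15 with numpy 2.4.6, pandas 2.3.3 and matplotlib 3.10.9, and R 4.3.3 with limma 3.58.1.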

Additional observations from a re-analysis of the deposited data

Results flagged for a closer look

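The EPS difference of Atf5 ran in opposite directions at the time points. Atf5 was 0.15 lower with EPS than without EPS at 5 h and 0.53 higher with EPS at 0 min, a difference of EPS effects of −0.67 on the log2 scale. Each value rests on 1 pair of arrays, so the difference was not tested. Both values exceeded the 95th percentile of the spot standard deviation (0.10 at 5 h and 0.11 at 0 min). The value at 5 h was within the scanner software's error of 0.20. Over the alternative settings it ran from −0.15 to −0.06, and −0.06 is inside the spot error as well. The value at 0 min ran from 0.39 to 0.56.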

How the results depend on the processing

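No paired analysis was possible because each group has 1 array and the labels give no replicate numbers, and for the same reason none was left out. Over 350 differences of single members under the alternative scalings, background correction, filters and probe rule, 316 stayed within the spot error, 34 moved further and 337 kept their sign. The filters on dim genes could not move a member, because every member was well above background on every array. Each of the filter settings thus adds 50 unmoved values by construction. The probe rule could not change the 6 members with 1 probe. Values within the spot error were 50 with normexp, 42 with quantile normalization, 30 with median centring and 44 with the mean of probes. Those that moved further were 8 with quantile normalization, 20 with median centring and 6 with the mean of probes. Under median centring all members of a comparison shift by the same constant, so they could only move or stay together. The 20 were the members in the comparisons of time, where that constant exceeded the spot error. The 20 and the 30 under this setting are thus set by construction and give no separate check of single members.

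The counts of members depended on the size rule: at 2-fold they were 0 in every comparison, and at 1.5-fold they were 2 higher for EPS at 5 h, 4 higher for time without EPS, 1 higher for time after EPS, and 2 higher and 1 lower for the difference of EPS effects. At 1.5-fold, normexp background correction gave 2 higher for time after EPS and 0 lower for the difference of effects, whose median turned to 0.018. Quantile normalization gave 2 higher and 1 lower for time without EPS, 2 higher for time after EPS and 0 lower for the difference of effects, with a median of 0.14. With arrays centred on their medians, 3 members were higher for EPS at 5 h, Ddit3 among them, and 1 (Trib3) for EPS at 0 min. For time after EPS, 4 members were then higher at 1.5-fold and 1 (Psat1) at 2-fold, with a median of 0.40, and the median for time without EPS was also 0.40. That centring shifted the median of all genes from −0.08 to 0.10 for time after EPS and from −0.02 to 0.11 for time without EPS. The mean of a gene's probes put 1 member (Psat1) past 2-fold for time after EPS and the median of the difference of effects at 0.0021. Median centring adds the same constant to every gene in a comparison, so the members shifted with all genes. The cause of the other shifts was not tested.

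Counts over all genes moved more. With normexp, 74 genes reached 2-fold for EPS at 5 h, against 225 otherwise, 71 against 249 for EPS at 0 min, 597 against 1117 for time after EPS, 412 against 869 for time without EPS and 107 against 361 for the difference of effects. With no filter on dim genes these counts were 2530, 2246, 3940, 3111 and 3978, and with genes well above background on at least 1 array they were 1027, 1024, 2177, 1770 and 1837. Of the genes past 1.5-fold, the share that was higher was 41.1% for EPS at 5 h, and 58.2% with median centring and 52.3% with quantile normalization. It was 38.7% for time after EPS and 66.0% with median centring, 41.3% for time without EPS and 62.2% with median centring. For EPS at 0 min it was 37.6%, and 47.8% with normexp, and for the difference of effects 45.7%, and 31.6% with normexp. Dim probes limit what can be said of weakly expressed genes; the 10 members were all well above background.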

Other observations

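Near relatives of the 10 genes, chosen by family, moved further than the members in several cases. Trib1, a pseudokinase related to Trib3, was 1.13 higher with EPS at 0 min (2.19-fold), and Trib2 was 0.74 higher with EPS at 5 h (1.67-fold) by its brightest probe but −0.09 by the mean of its probes. Cebpd, a C/EBP factor, had an EPS difference of −1.0 at 5 h and of 0.78 at 0 min. Cebpd was also 2.81 higher at 5 h than at 0 min without EPS (7.03-fold) and 1.03 higher after EPS (2.05-fold). Sesn1, a relative of Sesn2, had a 5 h minus 0 min difference of −0.70 after EPS and −1.0 without EPS. For Sesn2 that difference was 0.27 after EPS and −0.16 without EPS. Of 13 genes on this list 12 were measured in each comparison, and its median EPS difference was 0.07 at 5 h and −0.04 at 0 min.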
